A study of Mus musculus with 10 samples.

Results

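The 10 genes followed here belong to the endothelium of the brain, the cell layer that lines its blood vessels and forms the blood-brain barrier. They are the junction genes Cldn5, Cdh5 and Pecam1, the carriers Slc2a1, Slco1c1, Abcb1a and Mfsd2a, and the receptors Flt1, Kdr and Tek. A probe was a member when the transcript accession in the array file belonged to 1 of these genes, whatever its value. This gave 12 of the 41174 probes of the array, for 10 of the 18539 genes that could be named. Cdh5 and Flt1 had 2 probes each, and the probes of Kdr and Pecam1 were printed 10 times on every array.

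The study compared a fish oil enriched diet (FD) with a standard lab diet (SD), and on each of its 10 arrays Cy-5 marks RNA of the left hemibrain of 1 male C57BL/6J mouse and Cy-3 marks another RNA. The mice began their diet at 3 weeks of age, stayed on it for 20 weeks and were 5 months old when the brain was taken. The diet of each array could not be settled, since the diet entries give FD for all 10 mice, the descriptions call all 10 controls, and the methods name arrays of both diets. No diets were therefore compared, no array is treated as a replicate of a diet, and values are given by animal number or as the lowest, median and highest of the 10 arrays.

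The RNA in Cy-3 is described as a pool of hemibrains of SD-fed mice in the sample labels and as a commercial reference RNA in the labeling protocol and the methods. The ratio of both dyes on a spot, as log2 Cy-5/Cy-3, had a median of 4.72 over 8 neuronal markers, 6.61 over 8 astrocyte markers and 4.81 over 6 oligodendrocyte markers, and a median of 0.06 over all genes. The cells that make up a hemibrain thus had far stronger markers in Cy-5 than in Cy-3. Every ratio below is set against this Cy-3 RNA, whose source the values do not name. A probe is called detected in a dye on an array where the scanner software flagged its spots as well above the background there.

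The endothelial cells of brain vessels are sealed to each other by tight junctions and hold few transport vesicles, so that nutrients, hormones and lipids cross them through carriers in the membrane. Cldn5 encodes the claudin that dominates the tight junctions of these cells, Cdh5 the VE-cadherin of their adherens junctions, and Pecam1 an adhesion molecule at the contacts between endothelial cells in all vessels. Slc2a1 (GLUT1) carries glucose, Slco1c1 thyroid hormone, Abcb1a (P-glycoprotein) pumps drugs and lipophilic compounds back into the blood, and Mfsd2a carries docosahexaenoic acid, the long n-3 fatty acid of fish oil, as a lysophospholipid and is needed for the low vesicle traffic of the barrier. Flt1 and Kdr encode VEGF receptors 1 and 2, and Tek the angiopoietin receptor Tie2.

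The sequence before the start of the gene is shown for 3 members, chosen because Slco1c1 and Cldn5 had the highest median ratios of the 10 genes and Slc2a1 had a ratio below 0 on all arrays. They are the 250 bases before the transcript start in RefSeq on GRCm38.p6, each on the + strand and written 5′ to 3′, namely chr16:18776597-18776846 for Cldn5, chr6:141524104-141524353 for Slco1c1 and chr4:119108495-119108744 for Slc2a1. Capitals mark a match to AGGAAG, the core bound by ETS factors, or to GGGCGG, a GC box, on either strand.
Cldn5: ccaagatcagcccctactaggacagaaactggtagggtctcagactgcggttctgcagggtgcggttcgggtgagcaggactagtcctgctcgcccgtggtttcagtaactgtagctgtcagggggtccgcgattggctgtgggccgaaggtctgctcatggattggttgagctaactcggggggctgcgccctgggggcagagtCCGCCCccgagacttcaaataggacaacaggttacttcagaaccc
Slco1c1: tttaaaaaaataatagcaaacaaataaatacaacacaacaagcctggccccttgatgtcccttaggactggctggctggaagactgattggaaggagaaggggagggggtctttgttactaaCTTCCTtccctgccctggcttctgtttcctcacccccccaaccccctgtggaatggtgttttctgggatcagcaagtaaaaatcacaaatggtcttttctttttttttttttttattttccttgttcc
Slc2a1: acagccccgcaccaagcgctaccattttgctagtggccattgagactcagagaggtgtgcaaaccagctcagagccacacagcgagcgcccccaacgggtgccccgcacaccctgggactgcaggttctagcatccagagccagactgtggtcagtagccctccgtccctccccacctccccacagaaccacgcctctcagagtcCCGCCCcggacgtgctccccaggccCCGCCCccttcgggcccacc
The table of RefSeq promoters held 8 of the 10 members and 32851 promoters in all, and Cdh5 and Pecam1 were not in it. AGGAAG was found in 3 of the 8 member windows (Abcb1a, Flt1 and Slco1c1) and in 29.5% of all windows. GGGCGG was found in 4 (Slc2a1, Kdr, Flt1 and Cldn5) and in 32.7% of all. CTTTGA, the core bound by TCF and LEF factors of the Wnt pathway, was found in 2 (Mfsd2a and Abcb1a) and in 13.8% of all, and TATAAA in 1 (Flt1) and in 12.4% of all. Both strands were searched, and none of these 4 motifs contains another. The windows of the 3 genes differed in composition, with 12 CpG in Cldn5, 13 in Slc2a1 and 0 in Slco1c1, where the median of all windows was 6. A match describes letters only, and the arrays do not measure binding.

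Of the 10 members, 8 had over 2-fold more signal in Cy-5 than in Cy-3 on every array, whereas 16.3% of the 18090 genes with a value on all arrays did (12.4% of the probes). The same 8 were the members above 0 on every array, where 32.2% of the genes were. No member was 2-fold lower on every array, where 15.4% of all genes and 14.3% of all probes were. The count of 8 became 6 with a floored background and an offset of 50 added to both dyes, and 1 with the normexp background, both followed by loess. On C10-434 neither dye of Abcb1a and Tek was detected. The median of the members' medians was 3.57 on the log2 scale. The members split by role only in part, since the exceptions were a carrier (Slc2a1) and a junction gene (Pecam1). In a hemibrain, more endothelial cells and more RNA in each of them cannot be told apart.

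**Figure D1:**
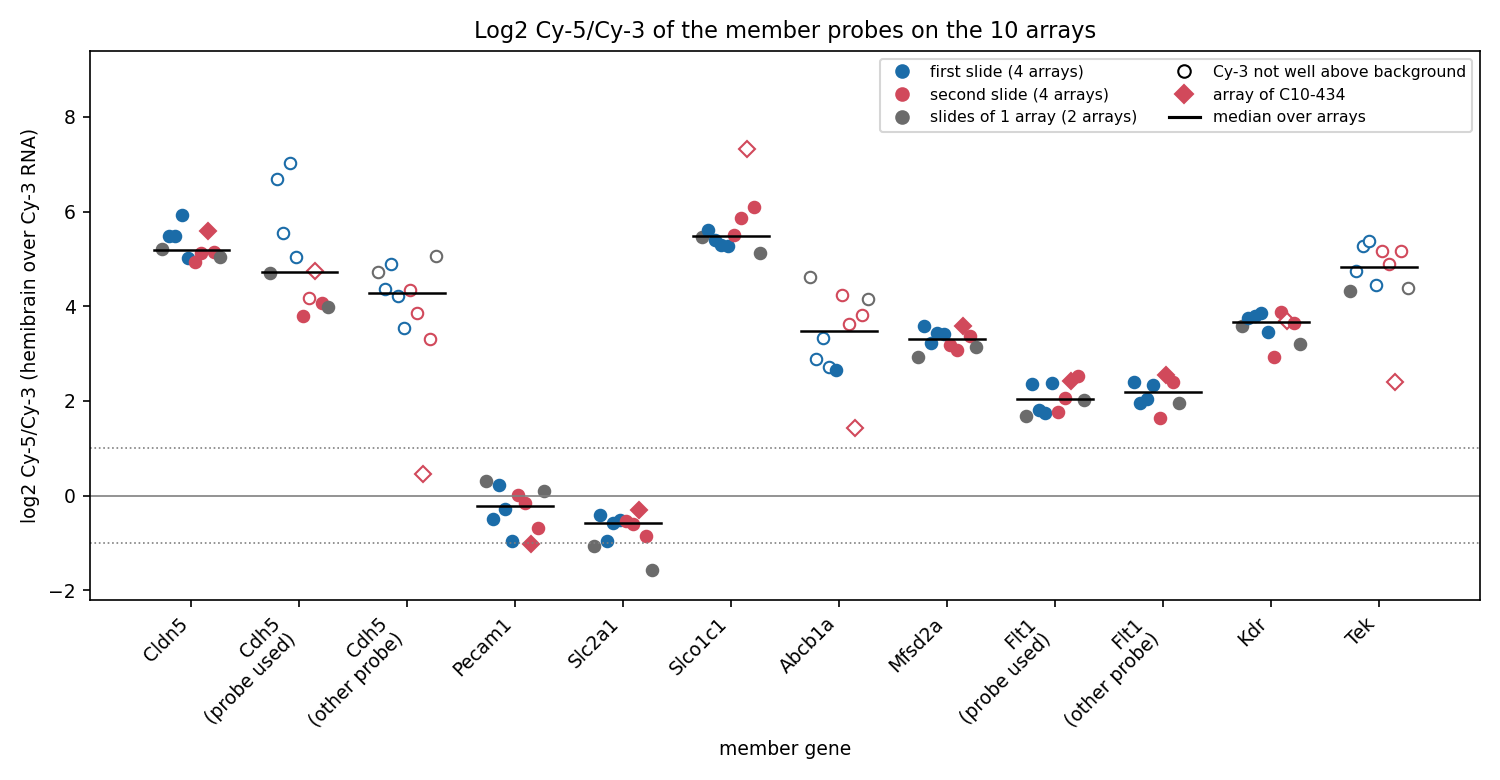
Log2 Cy-5/Cy-3 of the 12 member probes (x axis) on each of the 10 arrays, coloured by slide, with the median as a bar and dotted lines at 2-fold; for Cdh5 and Flt1 the probe used and the other probe are side by side, and the other Flt1 probe has 8 arrays. Cldn5 and Slco1c1 lie highest, at medians of 5.18 and 5.49, Pecam1 and Slc2a1 lie around and below 0, and many points of Cdh5, Abcb1a and Tek are open because their Cy-3 spot was not detected.

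Among the junction genes, Cldn5 had a log2 Cy-5/Cy-3 of 4.94 at the lowest (C10-424), 5.18 at the median and 5.92 at the highest (C10-417). Its lowest array was still 30.7-fold higher in Cy-5, and both dyes were detected on all 10 arrays. By its median, Cldn5 stood above 97.3% of the genes.

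Cdh5 had the widest spread of the 10 genes. Its probe A_52_P248604 ran from 3.79 (C10-424) over a median of 4.73 to 7.02 (C10-417). The Cy-3 spot was detected on 4 of the 10 arrays only, so that most of these ratios rest on an undetected spot. With the dimmest detected Cy-3 signal of the array in place of an undetected one, Cdh5 was at least 7.01-fold higher in Cy-5 on the lowest array and at least 21.7-fold at the median. The second probe, A_51_P309056, was detected on 9 arrays in Cy-5 and on 0 in Cy-3, with a range from 0.45 (C10-434) over 4.28 to 5.06 (C10-437). Over the 9 arrays with Cy-5 detected, which leave out C10-434, it was at least 2.14-fold higher (C10-435). On these arrays both probes placed Cdh5 higher in the hemibrain, but they ordered the arrays differently.

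Pecam1, the most widely shared endothelial gene of the 3, was at -1.02 (C10-434), -0.22 and 0.31 (C10-413). It was above 0 on 4 arrays and below 0 on 6, and its median stood above 39.8% of the genes. Its Cy-3 spots were detected on all 10 arrays and its Cy-5 spots on 9.

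Among the carriers, Slco1c1 had the highest median ratio of all members, at 5.49, which was above 97.9% of the genes. The lowest array was at 5.13 (C10-437) and the highest at 7.32 (C10-434), and without C10-434 the highest was 6.09. Its Cy-3 spot was detected on 9 arrays, C10-434 being the exception. With the floored background its median was 4.41, below the 4.82 of Cldn5, and with normexp 4.17, below 4.56.

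Slc2a1 ran from -1.57 (C10-437) over -0.59 to -0.30 (C10-434), so that every array had more Slc2a1 signal in Cy-3 than in Cy-5, by 1.5-fold at the median. Its Cy-3 signal lay between 35423 and 83551, and both dyes were detected on all 10 arrays. Its ratio stood above 30.2% of the genes. Slc2a1 is also used by many dividing and non-endothelial cells, and the part of such cells in its ratio was not tested.

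Mfsd2a had the tightest ratios of the members, from 2.92 (C10-413) over 3.30 to 3.59 (C10-434), a range of 0.67. The whole set of arrays lay between 7.59-fold and 12.04-fold higher in Cy-5, and both dyes were detected on all of them. Whether the docosahexaenoic acid carrier differed between the diets cannot be read from these arrays.

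Abcb1a was at 1.43 (C10-434), 3.47 and 4.61 (C10-413). Its Cy-5 spot was detected on 9 arrays and its Cy-3 spot on 1. Over these 9 arrays, which leave out C10-434, it was at least 2.82-fold higher than the dimmest detected Cy-3 signal on the lowest (C10-425) and at least 6.24-fold at the median.

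Among the receptors, Flt1 was at 1.68 (C10-413), 2.04 and 2.52 (C10-435) by probe A_52_P520859. The other probe, A_51_P398723, was brighter but carried an outlier flag on C10-413 and C10-425. Over its other 8 arrays it ran from 1.63 (C10-424) over 2.18 to 2.55 (C10-434). The ranges of the 2 probes nearly coincided, unlike those of Cdh5.

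Kdr was at 2.93 (C10-424), 3.66 and 3.88 (C10-425), 12.7-fold higher in Cy-5 at the median, which stood above 93.5% of the genes. This median was 2.12 with the floored background and 1.86 with normexp. Tek was at 2.40 (C10-434), 4.82 and 5.37 (C10-417), and without C10-434 its lowest array was at 4.33. Tek was detected in Cy-3 on 1 array only. Over the 9 arrays with Cy-5 detected, which leave out C10-434, it was at least 7.13-fold higher in Cy-5 on the lowest (C10-415) and at least 12.3-fold at the median.

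In Cy-5, 7 of the 10 members were detected on all arrays, against 65.3% of the genes, and in Cy-3 it was 5 members, against 72.7% of the genes. The 3 members that missed an array in Cy-5 were Abcb1a, Pecam1 and Tek.

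C10-434 was the dimmest array, with 49.8% of probes detected in Cy-5 where the other 9 had between 68.2% and 76.9%, and it gave the lowest ratio of Abcb1a, Pecam1 and Tek and the highest of Slco1c1, Slc2a1 and Mfsd2a. Without it, 8 members were again 2-fold higher in Cy-5 on every array.

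The spread over the arrays was then taken apart by dye. The Cy-5 level is the log2 Cy-5 signal minus the 75th percentile of its array. It takes no Cy-3 value of the spot, but the Cy-5 signal used was already dye-normalized and so may still depend on Cy-3. For Cdh5 the ratio spanned 3.23 over the arrays and the Cy-5 level 0.50. For Slco1c1 they spanned 2.19 and 0.61. The Cy-3 signal of the Cdh5 probe ranged from 8.78 (C10-417) to 96.9 (C10-424), and that of Slco1c1 from 17.4 (C10-434) to 194.4 (C10-413). The arrays with the highest ratio of these 2 genes were those with the dimmest Cy-3 spot. For Cldn5 (0.98 and 0.93), Mfsd2a (0.67 and 0.70), Slc2a1 (1.26 and 1.35), Pecam1 (1.33 and 1.37), Flt1 (0.84 and 0.97) and Kdr (0.95 and 0.80) the span of the ratio and that of the Cy-5 level were close. For Tek they were 2.97 and 2.10, and for Abcb1a 3.18 and 1.98.

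**Figure D2:**
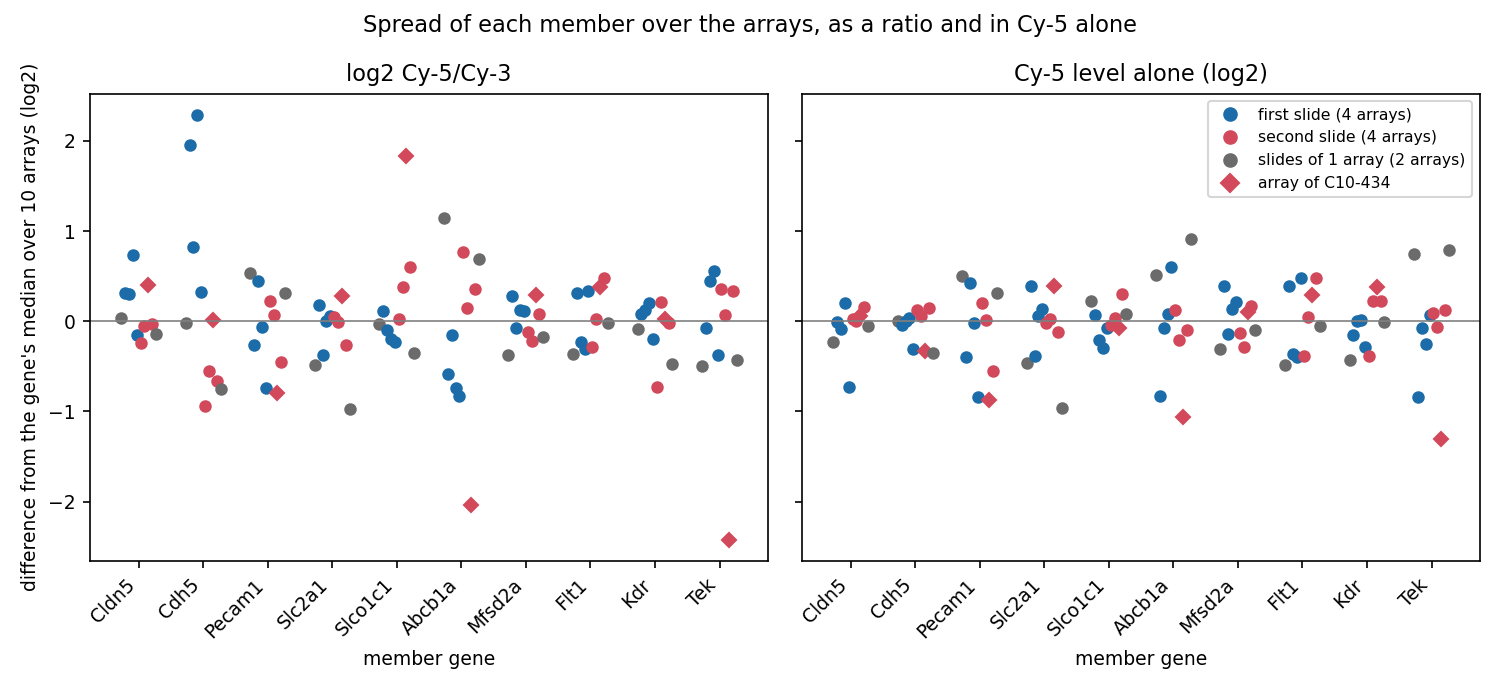
Difference of each member from its own median over the 10 arrays, in log2 Cy-5/Cy-3 (left) and in the Cy-5 level alone (right), coloured by slide with C10-434 as a diamond. Cdh5 and Slco1c1 spread over 3.23 and 2.19 as ratios but over 0.50 and 0.61 in Cy-5, whereas Tek and Abcb1a stay spread in both.

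The 10 spots of Kdr and of Pecam1 on each array give the error of a single spot. The standard deviation (SD) of log2 Cy-5/Cy-3 over the Kdr spots of an array was 0.67 at the median array and between 0.31 and 0.73. Over the arrays the mean of the spots had an SD of 0.31, where a spot SD of 0.67 gives a mean of 10 spots a standard error of 0.21, if the spots are independent. For Pecam1 the spot SD was 0.13 at the median array, which gives 0.04 in the same way, and the SD over the arrays was 0.48.

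The spots of Kdr spread in Cy-3 more than in Cy-5. The coefficient of variation over the spots was 6.21% at the median array in Cy-5 and 41.4% in Cy-3. For Pecam1 the Cy-5 value was 10.6% and the Cy-3 value 5.87%. Of the 245 probes with 10 spots, only 1 had a larger median SD than Kdr, and the median of these probes was 0.13. Among the 39 of them whose Cy-3 signal was within 2-fold of that of Kdr, the SD had a median of 0.28 and ranged from 0.14 to 0.70.

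The Kdr spots also depended on their place, a split made after the spots were seen. Of its spots, 5 lie in the upper rows of an array and 5 in the lower rows. On the first slide (C10-415, C10-416, C10-417 and C10-423) the lower spots had a ratio below the upper ones on each of the 4 arrays, by -0.66 in the mean. On the second slide (C10-424, C10-425, C10-434 and C10-435) they were above on each of the 4 arrays, by 0.89. Read from the upper spots alone, Kdr was lower on the second slide by -0.91, and from the lower spots alone it was higher by 0.64. For Pecam1 the same differences were -0.01 and -0.19. Of the 39 probes of like Cy-3 signal, 1 had a change of rows between the slides larger than the 1.55 of Kdr, and their median was 0.05.

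**Figure D3:**
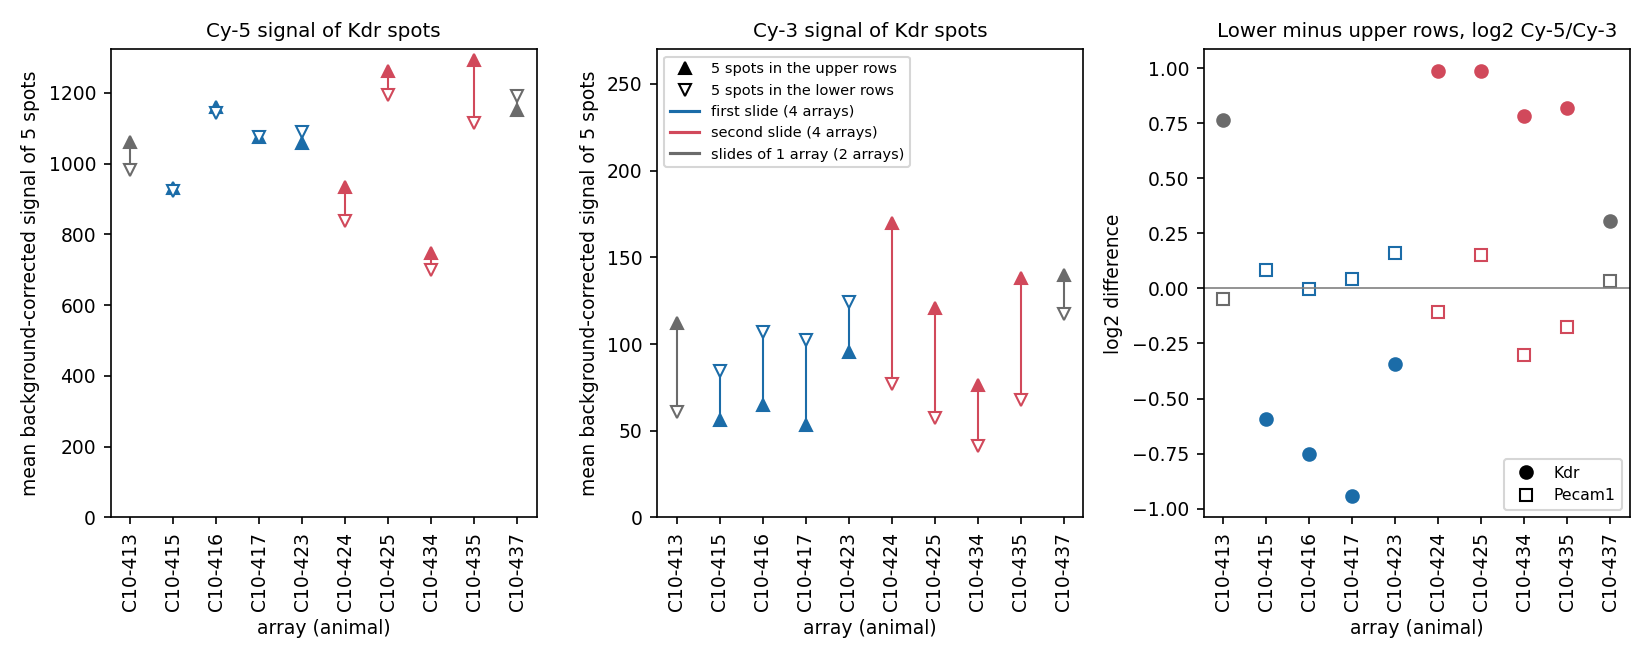
Mean signal of the 5 upper-row and the 5 lower-row spots of Kdr on each array in Cy-5 (left) and Cy-3 (middle), and the lower minus upper difference in log2 Cy-5/Cy-3 of Kdr and Pecam1 (right). The Cy-5 means of upper and lower spots stay close, while the Cy-3 means part in opposite directions on the first and second slides, so that the Kdr difference is below 0 on the first slide and above 0 on the second.

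The arrays of the first and second slide, 4 on each, were compared for all probes with limma, which asks whether a member differed with the slide and the mice on it. Slide, mouse and diet cannot be told apart here. With Benjamini-Hochberg adjustment over 40299 probes and a threshold of 0.05, 0.0744% of the probes were called, and 0 of the 10 members were. At an unadjusted p under 0.05, 2 members passed, where 10.0% of all probes did.

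Those 2 were Cdh5 and Slco1c1. The first slide had Cdh5 at 5.05 to 7.02 and the second at 3.79 to 4.75, a difference of -1.88 (SE 0.43, p = 0.00172 and limma's adjusted p = 0.147). With loess within each array the slides overlapped and limma's adjusted p was 0.228. As processed, its slides did not overlap, and over all 8 arrays it was the only member of which this held, where 5.67% of all probes did not overlap in either direction. In the Cy-5 level the Cdh5 difference was 0.08 (limma's adjusted p = 0.948) and the slides overlapped. The other Cdh5 probe differed by -1.26 (limma's adjusted p = 0.683). Slco1c1 differed by 0.81 (SE 0.35, limma's adjusted p = 0.488), with C10-434 as its highest array, and by 0.43 without C10-434. The other 8 members differed by between -0.55 (Tek) and 0.39 (Abcb1a), none past the threshold. Without C10-434, Tek differed by 0.12 and Abcb1a by 1.00 (SE 0.23, p = 0.00224 and limma's adjusted p = 0.165). Abcb1a was then at 2.64 to 3.32 on the first slide and at 3.62 to 4.24 on the second, without overlap, where 10.4% of all probes did not overlap. On these arrays its Cy-3 spot was detected on C10-423 alone. Its Cy-5 level on them overlapped, at -4.38 to -2.95 on the first slide and -3.76 to -3.43 on the second. In the Cy-5 level of all 8 arrays, 5.74% of all probes were called and 12.8% did not overlap, and 0 members did either.

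The members did not move as 1 group over the arrays. Over the 45 pairs of members, the mean Pearson correlation of log2 Cy-5/Cy-3 across the 10 arrays was 0.01, with 22 pairs above 0, and it was 0.02 over all pairs of the 11658 genes detected in Cy-5 on every array. Without C10-434 the mean over the members was 0.06, and in the Cy-5 level it was -0.04. These are correlations over arrays that share a Cy-3 RNA, a scan and a dye normalization. The highest pair was Cldn5 with Cdh5, at 0.82, and at 0.48 in the Cy-5 level. The lowest was Pecam1 with Flt1, at -0.85, and at -0.87 in the Cy-5 level.

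Read after the pairs were seen, 2 sets of members stood against each other. Pecam1, Abcb1a and Tek varied over the arrays against Slc2a1, Mfsd2a and Flt1, with all 9 pairs across the sets below 0 and all 6 pairs within a set above 0, both as ratios and in the Cy-5 level. In the Cy-5 level this also held without C10-434, where the pairs across ran from -0.89 to -0.25, but as ratios without C10-434 it held for 7 of 9 and 4 of 6. The difference between the sets in the Cy-5 level was highest in C10-437 (1.05) and C10-413 (1.01) and lowest in C10-434 (-1.34) and C10-415 (-1.08). It had a correlation of 0.64 with the share of probes detected in Cy-5. With the 11658 genes split into 4 groups by Cy-5 level, the share with a correlation above 0 with this difference was 39.9% in the dimmest group, then 49.3%, 40.6% and 27.4% in the brightest. The probes of Pecam1, Abcb1a and Tek had the lowest median Cy-5 levels of the members (-3.03, -3.55 and -2.35). Those of Slc2a1, Mfsd2a and Flt1 lay at 4.12, 2.64 and 0.60. The sets were picked from these same correlations, so the counts of pairs only describe them. The part of signal level in the difference between the sets was not tested.

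**Figure D4:**
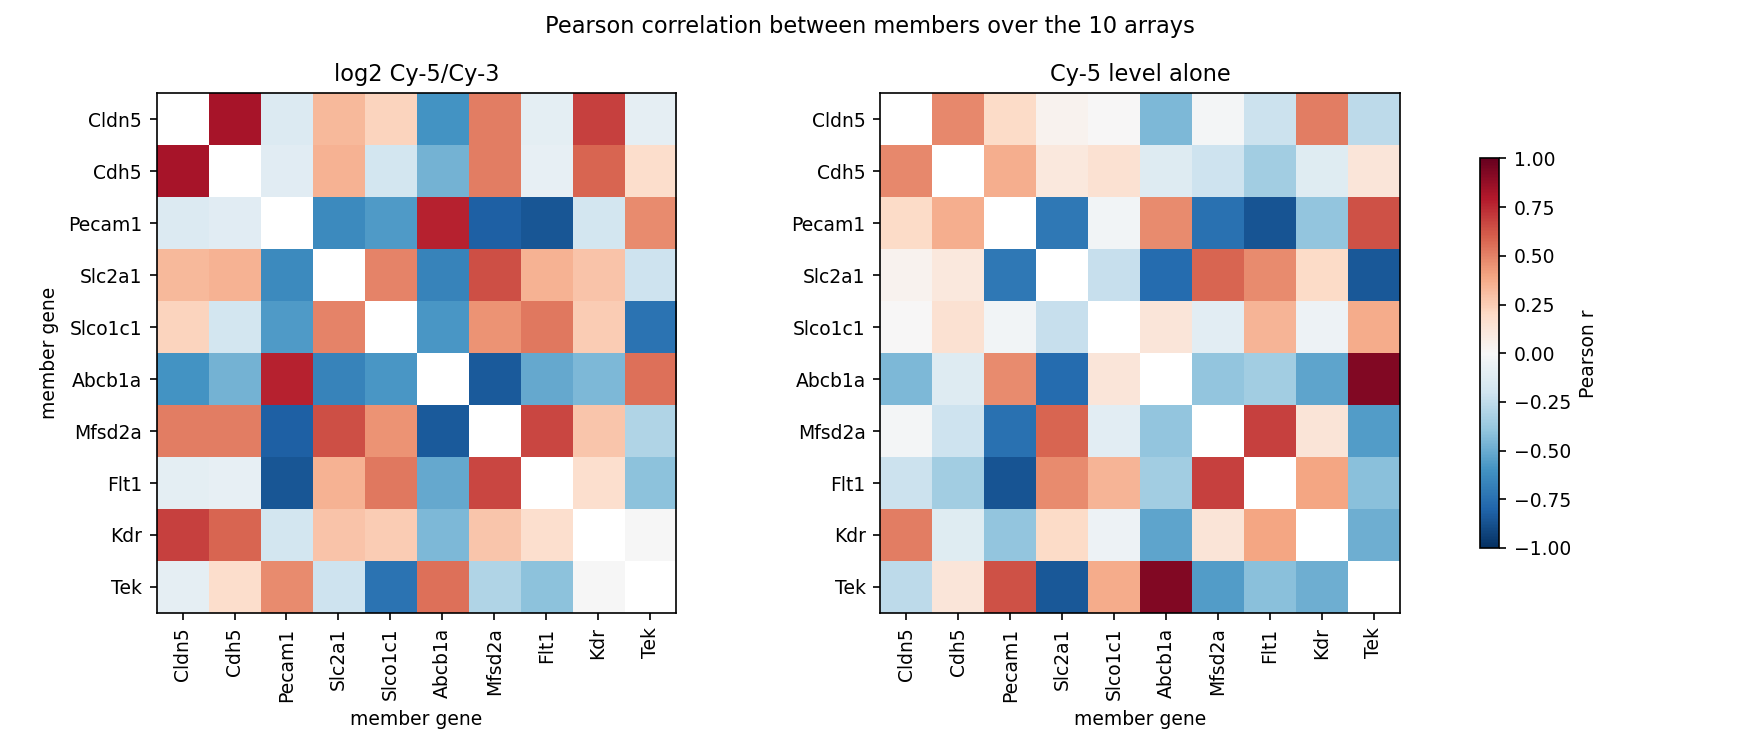
Pearson correlation between each pair of members over the 10 arrays, in log2 Cy-5/Cy-3 (left) and in the Cy-5 level alone (right), from -1 (blue) to 1 (red). Cldn5 with Cdh5 is the highest pair on the left at 0.82, and Pecam1 with Flt1 the lowest at -0.85; blocks of both colours leave a mean of 0.01.

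The genes whose ratio ran most like the mean of the members, among 10825 genes detected in both dyes on every array, were Kcnq1 (r = 0.95), Lrrc8b (0.94), Ltc4s (0.93), Olfr1395 (0.92) and D130020L05Rik (0.91). Without C10-434, Kcnq1 and Ltc4s were still among the highest 10, while Lrrc8b, D130020L05Rik and Olfr1395 fell to ranks 24, 48 and 50. The ratio of Kcnq1 itself ran only from -0.38 to 0.06. These are the highest of 10825 correlations over 10 arrays, and how high such a maximum runs by chance was not tested. The members were not scaled before their mean was taken, so those with the widest spread weigh most in it. These were Cdh5 (SD over the arrays 1.13), Abcb1a (0.95) and Tek (0.87), whose Cy-3 spots were detected on 4, 1 and 1 arrays.

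Other genes of the same cells and pathways were read from fixed lists. Of 18 general endothelial genes with a value on every array, Cldn5 among them, 10 were 2-fold higher in Cy-5 on all arrays and 1 was lower, with a median of 1.76. Beside Cldn5, the highest were Emcn (5.06), a sialomucin of endothelial surfaces, and Robo4 (4.49), a guidance receptor of endothelial cells, and the lowest were Ly6a (-2.61) and Fli1 (-1.18), an ETS factor also used by blood cells. Of 7 genes typical of peripheral or fenestrated endothelium, 2 were higher, with Plvap at 1.84 and Lyve1, a lymphatic marker, at 1.86, and Aqp1 was lower.

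Of 13 genes of tight junctions, 4 were 2-fold higher and 1 was lower, with a median of 0.51, which turned to -0.063 when all probes of a gene were averaged. Esam (4.11), an adhesion molecule of endothelial junctions, Jam3 (1.87) and Jam2 (1.79) led, and the epithelial adhesion molecule F11r (-2.62) was the lowest.

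Of 20 transport genes, 4 were 2-fold higher and 5 were lower, with a median of -0.54. The amino acid carrier Slc38a5 (5.23) and the organic anion carriers Slco2b1 (5.22) and Slco1a4 (2.99) led the list, next to their relative Slco1c1. The drug pump Abcc1 (-1.95), the large amino acid carrier Slc7a5 (-1.68) and the pump Abcc4 (-1.63) were the lowest. Slc2a1 was one of many carriers below 0, and Slc7a5 like Slc2a1 serves growing cells of many tissues. The part of such cells in these ratios was not tested.

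Of 11 VEGF and angiopoietin genes, 2 were higher and 2 were lower, with a median of -0.70. Ptprb (6.28), the phosphatase that acts on Tie2, was the highest. With Cy-5 detected on every array, the ligands Vegfd (-3.28) and Vegfc (-1.52) were the lowest. Vegfa, the main ligand of Flt1 and Kdr, was at -0.83, below its receptors in ratio. Of 16 genes of Wnt signaling and barrier formation, 5 were higher and 3 were lower, with a median of 0.20. The ligands Ndp (6.26) and Wnt7a (3.36) and the co-receptor Tspan12 (3.25) led, and the co-receptor Adgra2 (-2.02), the factor Lef1 (-1.59) and the receptor Fzd6 (-1.16) were the lowest.

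Of 7 genes of caveolae, vesicles that are scarce in brain endothelium, 6 were 2-fold lower in Cy-5 on all arrays, with a median of -2.52. Cav1 was at -4.08 and Cavin1 at -2.52. Plvap, which forms diaphragms over such vesicles, was the exception. Caveolar genes are also abundant in fat, muscle and fibroblasts, and 5 of 7 fibroblast markers were lower too, with Col1a1 at -5.66. The source of the low caveolar ratios was not tested.

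The markers of neighbouring cells did not follow one pattern. Of 11 mural cell genes, 6 were higher and 3 were lower, with the pericyte gene Kcnj8 at 6.37 and the contractile gene Tagln at -3.18. The Cy-3 spot of Kcnj8 was detected on 2 arrays only. Of 5 blood genes, 3 were higher, with the globin Hbb-bt at 6.65, and the leukocyte gene Ptprc, at -5.89, was lower. Markers of choroid plexus, another barrier tissue, had a median of 4.68 over 5 genes, with Ttr at 6.46, and those of microglia 1.34 over 7 genes. Between the 2 slides, 0 genes of any of these lists were called in log2 Cy-5/Cy-3. In the Cy-5 level, 5.74% of all probes were called, and 2157 of these 2313 probes were higher on the second slide. Called there were 3 of the 7 genes of peripheral endothelium, 1 of the 13 of tight junctions and 1 of the 5 blood genes. Each was higher on the second slide, as most called probes were, and 0 genes were called in the other lists.

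**Figure D5:**
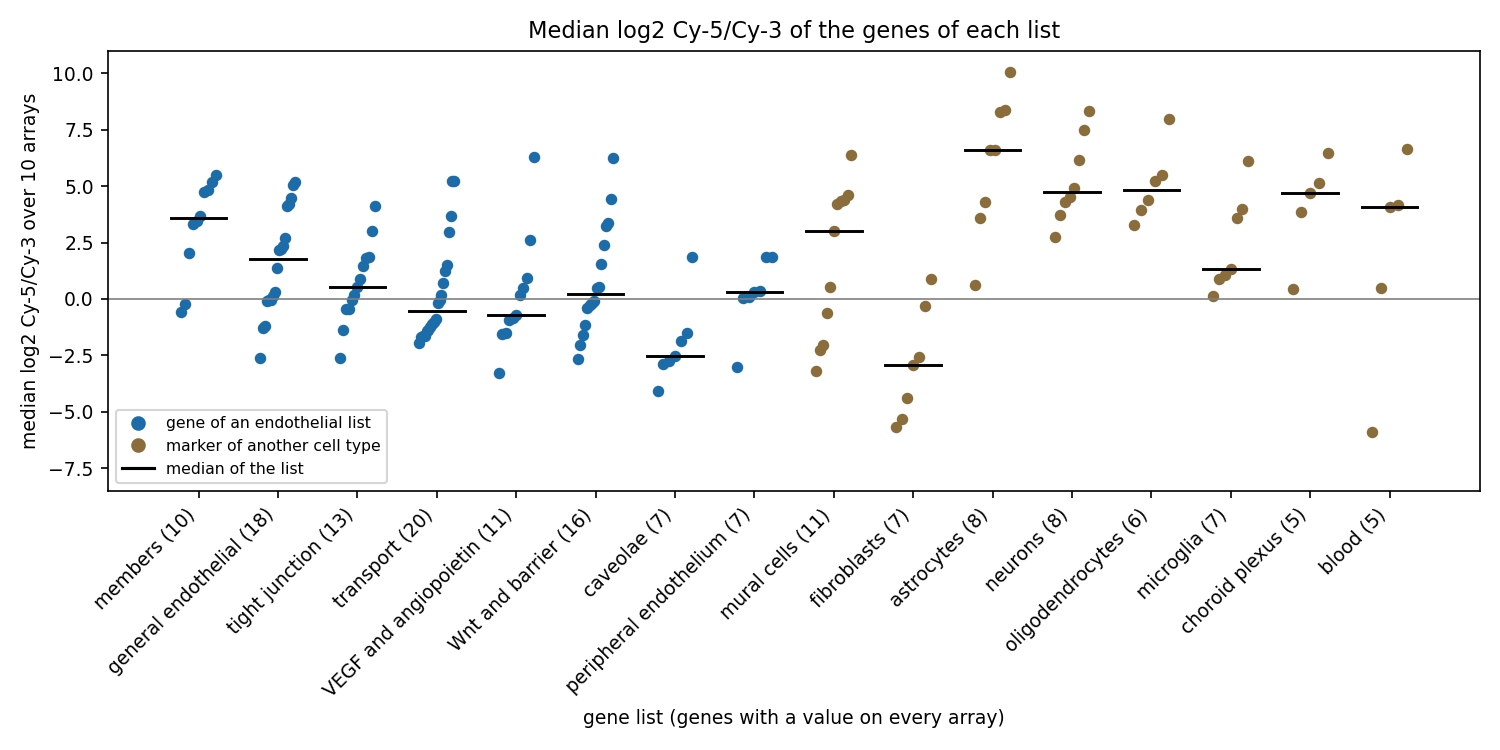
Median log2 Cy-5/Cy-3 over the 10 arrays of each gene (point) of the members and of the fixed lists, with the median of the list as a bar and the number of genes in brackets. The members sit at a median of 3.57, above the other endothelial lists and below astrocytes (6.61), and caveolar and fibroblast genes lie mostly below 0.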

How the data were processed

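Each array was scanned by the authors and read with Feature Extraction 10.10.1.1. The deposited intensity columns hold background-subtracted and processed signals of both dyes, the processed ones already dye-normalized, and the deposited LogRatio column is log10 of Cy-5 over Cy-3. The authors also deposited a table of log2 values, which were the processed ratios of the same arrays (correlation of at least 0.999 on each array).

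The processed signals gave log2 Cy-5/Cy-3, with outlier-flagged spots left out and the mean taken over the spots of each probe. A probe was called detected (the software's flag for well above background) where at least 0.5 of its spots had that flag. Probes were named by accession through RefSeq genes of GRCm38.p6, from which no coordinates were taken but those of the printed promoters (66.1% of 41174 probes were named). A gene is its probe of highest mean Cy-5 signal among those with a value on every array. That last condition was added for Flt1, whose brighter probe is given beside it. For an undetected Cy-3 spot, the bound uses the dimmest detected signal of its array, and arrays with Cy-5 undetected have no bound.

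Slides were compared with limma 3.58.1 in R 4.3.3 (lmFit, eBayes) and Benjamini-Hochberg adjustment. On simulated data of 40299 probes with 200 changed by 1.5, 53% were recovered and 9 unchanged probes were called. Tables were made with Python 3.11.15, numpy 2.4.6 and pandas 2.3.3. Arrays of 1 slide are single hybridizations of different mice, so p-values measure the spread between these arrays, and the number of arrays limits the precision. All slides were scanned on 1 day.

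Named genes are the members, at most 3 genes at each end of a list among those detected in Cy-5 on every array, and the 5 genes most like the members' mean. Vegfa, Cavin1, Ptprc and Lyve1 lie outside this rule, and their values were known when they were named. The members and lists were chosen with earlier results of these data known. Genes of the lists without a value on every array were left out (Tal1, Lrp5, Kcnj13 and 4 globin genes had no named probe). Alternatives were loess (span 0.3), median centring, a floored subtraction (offset 50), normexp, outliers kept, the deposited table, all probes of a gene, other detection rules and leaving out arrays. Probe sequences were not used here.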

Additional observations from a re-analysis of the deposited data

Results flagged for a closer look

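Each member's ratio and Cy-5 level over the 10 arrays was tested for a sample far from the others (Dixon's test, 20 measures), and 3 were found, where chance gives about 1. The Cy-5 level of Cldn5 was 1.99 in C10-423, and between 2.49 and 2.92 in the other arrays, while its ratio there (5.03) lay within the others. The ratio of Slco1c1 was 7.32 in C10-434, and between 5.13 and 6.09 elsewhere. The ratio of Tek was 2.40 in C10-434, and between 4.33 and 5.37 elsewhere. C10-434 was the array with the fewest probes detected in Cy-5 (49.8%), and the part of this in both values was not tested.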

How the results depend on the processing

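No paired analysis was possible because the labels put the arrays in no group and give them no shared replicate numbers. The 8 members 2-fold higher in Cy-5 on every array became 6 with a floored background, an offset of 50 and loess, and 1.0 with normexp and loess. The offset adds to both dyes and so draws ratios of dim spots to 0, which took the median of Abcb1a to 0.98, of Tek to 1.63, of Cdh5 to 2.30, of Kdr to 2.12, of Slco1c1 to 4.41 and of Cldn5 to 4.82; for normexp (0.71, 1.24, 1.92, 1.86, 4.17 and 4.56, and 1.60 for Flt1) the cause was not tested. Loess, median centring, the deposited table, outliers kept, all probes of a gene and leaving out each array in turn gave 8. The members called between the slides numbered 0 in every setting, leave-one-out included (0 to 0), while over all probes the count went from 0 (without any of 6 arrays, or with normexp) to 18 (without C10-423), and to 68 over probes detected in Cy-5 and 2313 for the Cy-5 level alone. Over probes detected in Cy-5 on every array, 22.5% of probes were 2-fold higher on all arrays, in place of 12.4%. The mean correlation of the members went from 0.012 to -0.043 in the Cy-5 level, and to -0.048 without C10-434 as well, both chosen after seeing the data. The median of the tight junction list went from 0.51 to -0.063 with all probes of a gene. No spot was saturated, and dim Cy-3 signal limits the ratios of Cdh5, Abcb1a and Tek, and Kdr and Slco1c1 also moved with the background.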
